A study of Mus musculus with 5 samples.

Results

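The SR splicing factors of mouse embryonic stem cells (mESCs) were examined at the level of their isoforms. The genes taken were Srsf1, Srsf2, Srsf3, Srsf4, Srsf5, Srsf6, Srsf7, Srsf10, Srsf11 and Tra2b. Every deposited transcript of these 10 genes with the Gencode type protein_coding was a member, which gave 26 of the 135276 transcripts in the count table. Srsf5 and Srsf11 each had 5 such isoforms, Srsf10 had 4, Srsf1 had 3, Srsf2, Srsf6 and Tra2b each had 2, and Srsf3, Srsf4 and Srsf7 each had 1. A further 48 transcripts of the same genes carried other types (24 retained_intron, 13 nonsense_mediated_decay, 11 processed_transcript) and served for comparison.

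All libraries came from self-renewing mESCs, listed in the study's methods as the 46C line, a stem cell line grown here with the cytokine LIF at 1000 units/ml. Cells of both groups were exposed to cycloheximide, which halts elongating ribosomes, and the lysates then received RNase I (1.3 U, 45 min), which left the short RNA stretch covered by each ribosome, the footprint. For standard RIBO-seq (3 libraries) ribosomes were pelleted through sucrose at 30%. For AHARIBO RIBO-seq (2 libraries) growing peptides bearing azidohomoalanine (AHA), an azide analogue of methionine, were coupled to biotin with a DBCO reagent at 50 µM and pulled down on beads together with their ribosomes. The labels describe every library as untreated, and the AHA dose of the RIBO-seq cultures is not given in the sources used here. The study's scheme of AHARIBO puts methionine depletion, AHA and sBlock (an anisomycin-based reagent) before lysis. A legend says that the input served for standard RIBO-seq, which would tie it to the AHARIBO lysates, but which libraries shared a lysate, and whether the standard libraries came from AHA-fed cells, is not given for RIBO-seq. Libraries held 6403651 to 11150527 counts after removal of duplicate reads. A floor of 3 counts corresponded to 0.262 to 0.476 CPM (counts scaled to a common library total with TMM factors), and this floor covers counting error only. The labels call the libraries biological replicates without saying what separated them, so p-values measure the spread between these libraries.

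The stem cell label was checked against its markers. All 8 stem cell genes examined, among them Pou5f1, Nanog and Dppa5a, were detected, and their summed level ran from 4849 to 5249 CPM in standard and from 4521 to 4947 CPM in AHARIBO RIBO-seq. The 5 fibroblast genes summed to at most 32.4 CPM and the 4 endoderm genes to at most 25.9 CPM in any library. The 5 neural genes, which include the tubulin gene Tubb3, summed to between 146 and 174 CPM.

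SR proteins are RNA-binding proteins that join an RNA recognition motif to a tail rich in arginine and serine. They bind exonic enhancers in pre-mRNA, help to recruit the spliceosome to nearby splice sites, and are phosphorylated on the tail by the SRPK and CLK kinases. Many SR genes hold their own level in check by splicing in an exon or retaining an intron that brings a premature stop codon, after which the mRNA is removed by nonsense-mediated decay (NMD). Ribosome footprints on the isoforms of such genes therefore fall on productive and unproductive mRNAs that share most of their sequence.

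The isoforms of a gene parted at a few splice junctions. Sequences of 30 nt across 4 of these junctions, read from the GRCm38 genome, are shown because a footprint can be assigned to 1 isoform and not the other only where such letters differ. Each sequence runs 5′ to 3′, its first 15 bases are common to both isoforms of the pair, and capitals mark bases that the other isoform of the pair lacks at this place.
Srsf6-203, joined at the next coding exon: gctacggaagccgcagtggtggaggtggat
Srsf6-202, joined to a cassette exon: gctacggaagccgcaTGACCAATGGGGCTG
Srsf1-205, spliced: tttagatctcacgagggagaaactgcctac
Srsf1-201, reading on into the intron: tttagatctcacgagGTAGGTTATACACTT
Srsf10-204, proximal last exon: ttccgacaatgatagATTCAAACACCGAAA
Srsf10-205, distal last exon: ttccgacaatgatagACCAAACTGCAGCTG
Srsf10-204, upstream acceptor: ttacagtcctagaaaCAGtagaccgactgg
Srsf10-202, downstream acceptor: ttacagtcctagaaatagaccgactggaag
In Srsf6 (chromosome 2, plus strand) the last common base lies at 162932142, and the transcript continues at 162933426 in Srsf6-203 and at 162932815 in Srsf6-202. In Srsf1 (chromosome 11, plus strand) the last common base is 88049215, after which Srsf1-201 reads on at 88049216 and Srsf1-205 resumes at 88049412. In Srsf10 (chromosome 4, plus strand) both last exons follow base 135863576, the proximal one from 135863729 and the distal one from 135867126. The 2 acceptors of Srsf10 lie 3 bases apart, at 135863523 and 135863526, and change the coding sequence by the bases CAG. These 3 bases keep the reading frame but are not a codon, as they start at coding position 438, the last base of a codon.

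**Figure D1:**
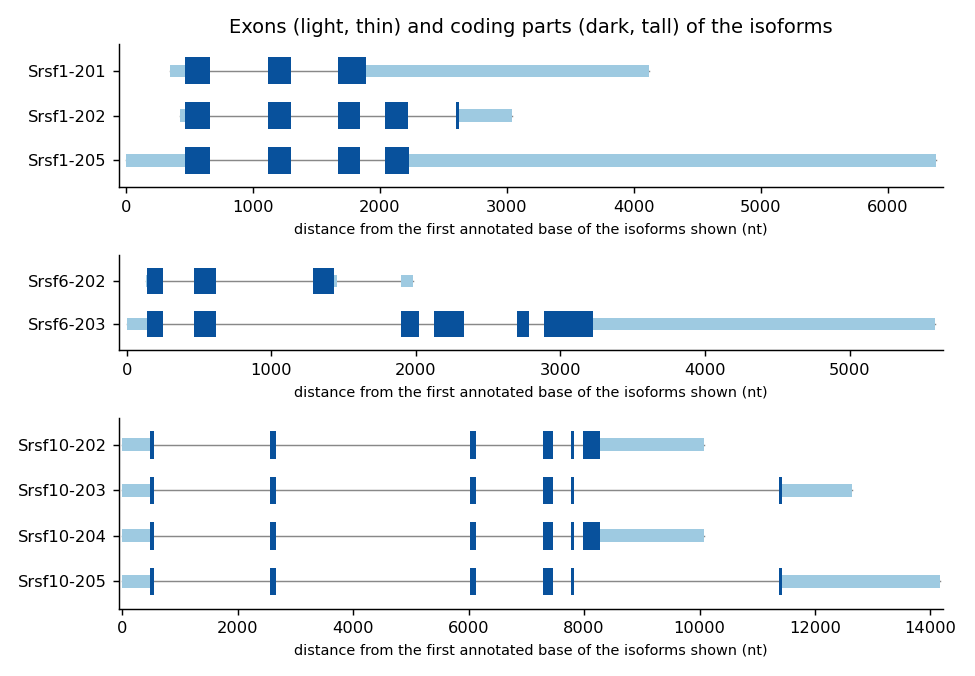
Exon maps of the protein_coding-type isoforms of Srsf1, Srsf6 and Srsf10, with distance along the gene in nt on the horizontal axis, exons as thin light boxes and coding parts as tall dark boxes. Srsf6-202 ends after a few exons, the coding part of Srsf1-201 ends inside what is an intron for the other isoforms, and the Srsf10 isoforms fall into 2 pairs by their last exon.

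These junctions changed the predicted protein tail. Srsf6-203, the longer form of a splicing regulator with known NMD-coupled autoregulation, has 339 codons and 74 adjacent pairs of an arginine and a serine codon, against 135 codons and 2 pairs in Srsf6-202, which the annotation tags as a likely NMD target if extended. Srsf1-205, from the founding SR protein gene, has 248 codons and 31 such pairs, against 201 codons and 4 pairs in Srsf1-201. The Srsf10 pairs hold 262 and 261 codons with the proximal exon (Srsf10-204 and Srsf10-202) and 183 and 182 codons with the distal exon (Srsf10-205 and Srsf10-203), with 42, 41, 19 and 18 pairs in that order. Srsf2-201 and Srsf2-206 encode the same 221 codons and differ only outside the coding sequence. Srsf4-202 carried the most arginine-serine pairs of the complete isoforms, 106 in 491 codons. AUG codons, which specify methionine and so the residues that AHA can replace, numbered 1 in Srsf3-202, where it is the start codon, and between 2 and 7 in the other isoforms with a complete start.

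Most footprints could not be assigned to 1 isoform. When coding sequences were scanned in windows of 30 nt, 19 of the 26 isoforms had no coding window of their own among all deposited transcripts. The deposited counts showed how such reads were treated. Of 248 groups of transcripts with identical sequence, 210 (84.68%) had equal counts in all 5 libraries, and of 1064 transcripts lying whole inside a longer one of their gene, 1057 (99.34%) never exceeded the longer. A read thus appeared to be counted for every transcript it matched, up to a limit given below, and the isoform counts overlap. Some genes also share coding sequence with other loci, so that their reads cannot be told apart: 94.2% of the coding windows of Srsf3-202 recur in other genes, 85.5% of those of Srsf10-204 and 85.3% of those of Tra2b-204, most of these loci being processed pseudogenes. For Srsf5-201 the share was 71.8% and for Srsf7-201 it was 13.0%, whereas Srsf1, Srsf2, Srsf4, Srsf6 and Srsf11 shared none. Of the coding windows of Srsf5-201, 20.4% occur in more than 10 transcripts. The share was 16.6% for Srsf11-209, 6.05% for Srsf11-204, 6.19% for Srsf11-201 and 6.5% for Srsf11-202. Reads matching more than 10 transcripts appeared to be left out, because 12 of 13 groups of more than 10 identical transcripts had 0 counts.

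The level of each gene was taken from its most abundant isoform, as CPM per kb of transcript averaged over the 5 libraries. Srsf2, the nuclear speckle protein SC35, stood highest with 79.1 CPM per kb (range over libraries 69.0 to 87.8), followed by Srsf5 with 70.5 (64.6 to 76.9). The ranges of these 2 genes overlapped. Srsf7 (40.01, range 37.4 to 43.5) and Srsf3, the smallest of the family (38.2, range 35.3 to 41.8), also overlapped each other and lay below Srsf5 in every library. Tra2b, which binds purine-rich enhancers, followed with 30.6 CPM per kb, then Srsf6 with 23.9 and Srsf1 with 16.5, and none of these 3 overlapped a neighbour in the order. The lowest levels belonged to Srsf11 (11.8), Srsf10, a regulator active as a repressor when dephosphorylated (10.9), and Srsf4 (10.7), whose ranges overlapped.

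**Figure D2:**
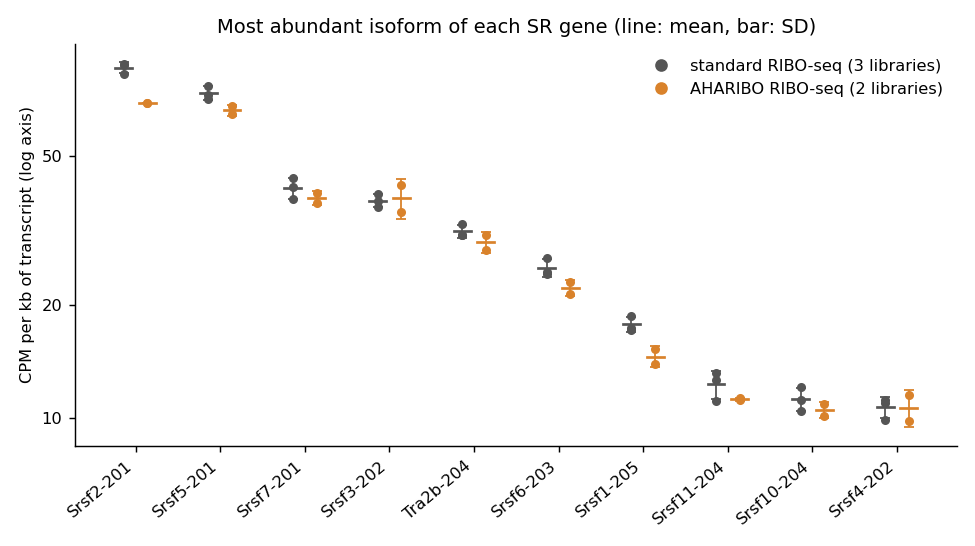
CPM per kb of transcript (log axis) of the most abundant isoform of each gene, with 1 point per library, the mean as a line and the SD as a bar, for 3 standard and 2 AHARIBO libraries. The isoforms run from Srsf2-201 at 69.0 to 87.8 down to Srsf4-202 at 9.78 to 11.5 CPM per kb.

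The order depended on the length used. Per kb of coding sequence, where footprints mostly fall, Srsf2-201 still ranked highest with 227 CPM per coding kb, Srsf3-202 moved to rank 2 with 199, and Srsf5-201 to rank 3 with 133. On this scale Tra2b-204 with 120 (range 110 to 129) and Srsf1-205 with 119 (range 100.1 to 135) overlapped, both above Srsf6-203 with 83.1 (74.3 to 92.5). Srsf4-202 remained the lowest with 16.3, below Srsf11-204 with 24.0 and Srsf10-204 with 42.5. Only 3 of the 10 genes, Srsf2, Tra2b and Srsf4, kept their rank.

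The share of an SR gene's counts on its most abundant isoform was compared over the 7 genes with several isoforms. In standard RIBO-seq Srsf2-201 held 50.4% ± 0.10 (SD, n = 3) of the counts of its 2 isoforms and Srsf5-201 held 20.9% ± 0.23 of the counts of its 5, which are close to the equal shares of 50% and 20% that reads matching every isoform give. Srsf1-205 held 35.8% ± 0.33 among 3 isoforms, Srsf10-204 held 26.8% ± 0.06 among 4, and Srsf11-204 held 26.7% ± 0.52 among 5. The largest departures from an equal share, in percentage points, belonged to Srsf6-203 with 70.2% ± 1.01 and Tra2b-204 with 59.7% ± 1.15, each of 2 isoforms. In AHARIBO RIBO-seq the share of Srsf6-203 was 73.6% ± 0.65 (n = 2), above every standard library, and an exact two-sided permutation test gave p = 0.1, the smallest that 10 splits of 5 libraries allow. The share of Srsf2-201 moved by 0.42 percentage points with the same p, and for the other 5 genes the exact p ranged from 0.2 to 0.8. With 7 genes compared, no share could pass the threshold in this design.

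The comparison between methods asked whether ribosomes captured through their nascent peptide gave the same SR footprints as ribosomes pelleted in bulk. All 26 transcripts passed the filter of 1 CPM in at least one library. With edgeR's quasi-likelihood test, 6 of the 26 fell in AHARIBO RIBO-seq (adjusted p under 0.05) and 0 rose, while 2.24% of all 66972 transcripts tested fell and 2.27% rose. The 6 belong to 3 genes, Srsf1, Srsf2 and Srsf6, and as isoforms of a gene share reads they are not 6 separate observations. The groups did not overlap, with AHARIBO lower, for 16 of the 26, against 16.5% of all transcripts tested, and 1 was higher without overlap, against 17.3%. The log2 fold change was below 0 for 23 of the 26, with a median of -0.14, against a median of 0.00 over all transcripts tested. Some stem cell markers were lower alongside. Klf4 had a log2 fold change of -0.43 and Sox2 of -0.31 at the gene level, without overlap (adjusted p = 0.0666 and 0.145 by edgeR, 0.00147 and 0.0465 by DESeq2). The other markers overlapped between the groups, with log2 fold changes from -0.14 for Dppa5a to 0.05 for Nanog. The median of the 8 markers was -0.11. The part of the markers in the SR values was not tested. The counts are footprints from bulk samples, and the groups differ in how ribosomes were isolated. Capture by the method, cell makeup and RNA per cell cannot be told apart in them.

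**Figure D3:**
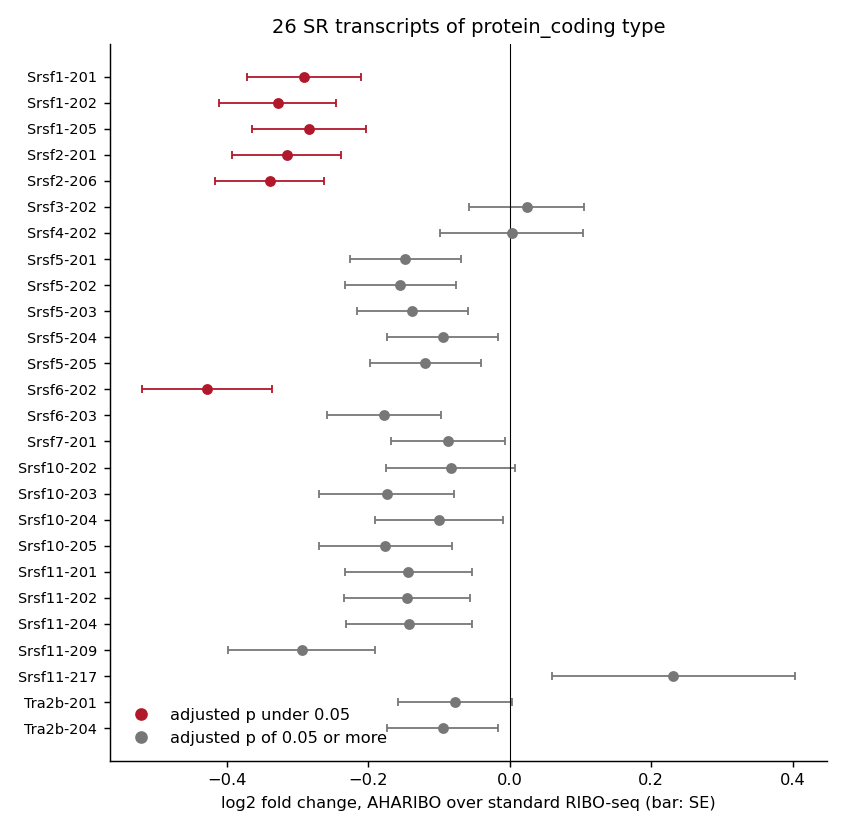
Log2 fold change of AHARIBO over standard RIBO-seq for the 26 transcripts, with SE as bars (3 standard against 2 AHARIBO libraries). Red points had an edgeR adjusted p under 0.05: all isoforms of Srsf1 and Srsf2, and Srsf6-202 but not Srsf6-203.

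Srsf2 was the gene called by both tests. Srsf2-201 spans chromosome 11 from 116849901 to 116853094 (minus strand). Srsf2-201 stood at 167, 157 and 166 CPM in standard replicates 1 to 3 and at 131 and 131 CPM in AHARIBO replicates 1 and 2. Both AHARIBO values lay below all standard values, and the level fell to 80.4% of standard (log2 fold change -0.32, SE 0.08, adjusted p = 0.00948 by edgeR). Srsf2-206, with the same coding sequence, read 164, 154 and 164 CPM against 126 and 127 CPM (log2 fold change -0.34, adjusted p = 0.00517). DESeq2 also called both isoforms, with adjusted p = 0.0267 and 0.0146, and called none of the other 24 members, at a background of 0.406% of transcripts. With duplicate reads kept the log2 fold changes were -0.48 and -0.50. The edgeR calls of Srsf2-201 and Srsf2-206 were lost without standard replicate 1 (adjusted p = 0.11 and 0.0795), without AHARIBO replicate 1 (0.0825 and 0.0533) and under a replicate block (0.133 and 0.0971). In that block standard replicate 3 has no AHARIBO library of its number and adds nothing to the contrast between methods.

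Srsf1, a factor that also acts in mRNA export and translation, followed closely. Srsf1-205 (chromosome 11 from 88047373 to 88053755) measured 92.1, 93.2 and 100.1 CPM in the standard libraries and 74.5 and 81.6 CPM in the AHARIBO libraries. The groups did not overlap, and the level fell to 82.1% of standard (log2 fold change -0.28, SE 0.08, edgeR adjusted p = 0.0288). Srsf1-201, whose coding part ends in that intron, fell by 0.29 and Srsf1-202, with another last coding exon, by 0.33 on the log2 scale (adjusted p = 0.0257 and 0.0121). None of the 3 was called by DESeq2 (adjusted p = 0.0876 to 0.129), and none was called by edgeR without AHARIBO replicate 1 (0.36 to 0.404), without standard replicate 1 (0.0727 to 0.114), with duplicate reads kept (0.0704 to 0.0888) or with the replicate block (0.111 to 0.218). Without standard replicate 3 only Srsf1-202 was called (adjusted p = 0.048), against 0.0855 for Srsf1-201 and 0.102 for Srsf1-205.

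Srsf6 was the gene whose isoforms parted at the threshold. The long isoform spans chromosome 2 from 162931528 to 162937121 and the short one from 162931661 to 162933509. Srsf6-202, the short form with the cassette exon, read 39.5, 38.5 and 34.7 CPM in standard and 26.5 and 29.9 CPM in AHARIBO RIBO-seq. All AHARIBO values were lower, and the level fell to 74.4% of standard (log2 fold change -0.43, SE 0.09, adjusted p = 0.003 by edgeR and 0.0782 by DESeq2). Srsf6-203, which carries the full arginine-serine tail, read 94.1, 86.1 and 85.4 CPM against 75.6 and 81.2 CPM. These groups did not overlap either, but the difference missed the threshold (log2 fold change -0.18, SE 0.08, adjusted p = 0.211). The count of Srsf6-202 amounted to 42.0%, 44.7% and 40.7% of that of Srsf6-203 in the standard libraries and to 35.1% and 36.8% in the AHARIBO libraries, so that the groups did not overlap (exact two-sided permutation p = 0.1). The excess of Srsf6-203 over Srsf6-202 was 50.9 ± 3.50 CPM (SD, n = 3) in standard and 50.2 ± 1.59 CPM (n = 2) in AHARIBO RIBO-seq, with overlapping groups. Without AHARIBO replicate 1 the adjusted p of Srsf6-202 was 0.172, without standard replicate 1 it was 0.0503, and with duplicate reads kept it was 0.0559.

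The remaining 7 genes had no transcript of the protein_coding type past the threshold. The 5 isoforms of Srsf5, a close relative of Srsf4 and Srsf6, had log2 fold changes between -0.15 and -0.09. Srsf5-201 read 110, 108 and 117 CPM against 98.6 and 103 CPM, without overlap and with adjusted p = 0.308. Srsf5-202, the next most abundant, read 109, 107 and 115 CPM against 96.3 and 102 CPM, also without overlap (log2 fold change -0.15, adjusted p = 0.279). With duplicate reads kept the log2 fold change of Srsf5-201 was 0.00, and those of Srsf5-203, Srsf5-204 and Srsf5-205 were above 0.
Tra2b-204 read 104.5, 104.3 and 112 CPM in standard and 95.5 and 104.5 CPM in AHARIBO libraries, with overlap (log2 fold change -0.09, adjusted p = 0.562). Tra2b-201, which lacks the first exon, read 70.6, 73.8 and 71.9 CPM against 66.6 and 70.2 CPM, without overlap (log2 fold change -0.08, adjusted p = 0.662). With duplicate reads kept the value of Tra2b-201 was 0.01. Srsf7-201, whose protein has a zinc knuckle, read 93.9, 87.3 and 99.2 CPM against 85.2 and 90.4 CPM (log2 fold change -0.09, adjusted p = 0.608, or a log2 fold change of 0.05 with duplicate reads kept). Srsf3-202 read 93.8, 97.1 and 101 CPM against 90.6 and 107 CPM, a spread between the AHARIBO libraries wider than that of the standard libraries (log2 fold change 0.02, adjusted p = 0.917). Its log2 fold change was 0.22 with duplicate reads kept (adjusted p = 0.129), 0.14 without AHARIBO replicate 1 and -0.10 without AHARIBO replicate 2. Srsf4-202 read 25.2, 22.3 and 24.7 CPM against 25.9 and 22.1 CPM (log2 fold change 0.00, SE 0.10), and the sign of its log2 fold change turned with RLE factors and with DESeq2. For these 4 genes the most abundant isoform overlapped between the methods.

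The isoforms of Srsf10 and Srsf11 hold different amounts of the coding sequence, and no difference between isoforms of either gene passed a test. Srsf10-204 and Srsf10-202, with the proximal last exon, had log2 fold changes of -0.10 and -0.08 and overlapping groups. Srsf10-205 and Srsf10-203, which lack that exon, had -0.18 and -0.17 without overlap (adjusted p = 0.309 and 0.324). Srsf11-204, the longest isoform of this SR-related gene, read 40.9, 39.1 and 34.4 CPM against 35.0 and 34.6 CPM (log2 fold change -0.14). Srsf11-202 had the same log2 fold change of -0.14 with overlapping groups. Srsf11-209, annotated over the first part of the coding sequence only, read 27.0, 28.8 and 21.9 CPM against 21.8 and 20.97 CPM (log2 fold change -0.29, SE 0.10, adjusted p = 0.0933). With edgeR under the replicate block its adjusted p was 0.0346. Srsf11-217, which covers a later stretch, read 5.94, 5.19 and 5.87 CPM against 6.12 and 7.19 CPM (log2 fold change 0.23, SE 0.17, adjusted p = 0.501) and was the only member higher in AHARIBO RIBO-seq without overlap.

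Isoform usage was tested directly, as the fold change of an isoform relative to the rest of its gene. edgeR's diffSpliceDGE called 0 of the 23 isoforms of the genes with several, and 0 of all 29921 transcripts tested. At an unadjusted p under 0.05 it gave 459 transcripts (1.53%), of which 2 were SR isoforms, namely Srsf6-202 (usage log2 change -0.19, SE 0.08) and Srsf11-217 (0.37, SE 0.17). limma's diffSplice also called 0 at the adjusted threshold. The difference between Srsf6-202 and Srsf6-203 was therefore not established by a test of usage.

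Because isoforms that hold only the start of a coding sequence had the lower values, all transcript types of the 10 genes were then placed along the coding sequence of the most abundant isoform. Transcripts were taken that cover at least 90 nt and at most 60% of it, with a mean of at least 5 CPM. These limits were chosen after the values of the isoforms were seen, and the counts that follow are a description. Of the 24 transcripts centred in the 5′ part (before 50% of its length), from 8 genes, 20 had a log2 fold change below that of the most abundant isoform, with a median difference of -0.18. All 7 transcripts centred in the 3′ part, from 6 genes, lay above it, with a median difference of 0.19. Of the 24, 10 belong to Srsf11. Transcripts of a gene share exons and reads, so neither the 24 nor the 7 are separate observations. The counts include member isoforms whose values were seen beforehand, Srsf6-202 and Srsf11-209 in the 5′ part and Srsf11-217 in the 3′ part. Across all genes the same limits gave 7157 transcripts centred in the 5′ part, of which 66.5% lay below with a median of -0.07, and 3084 in the 3′ part, of which 36.0% lay below with a median of 0.05. The SR values thus ran in the same directions as those of other genes with larger medians, a difference that was not tested.

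**Figure D4:**
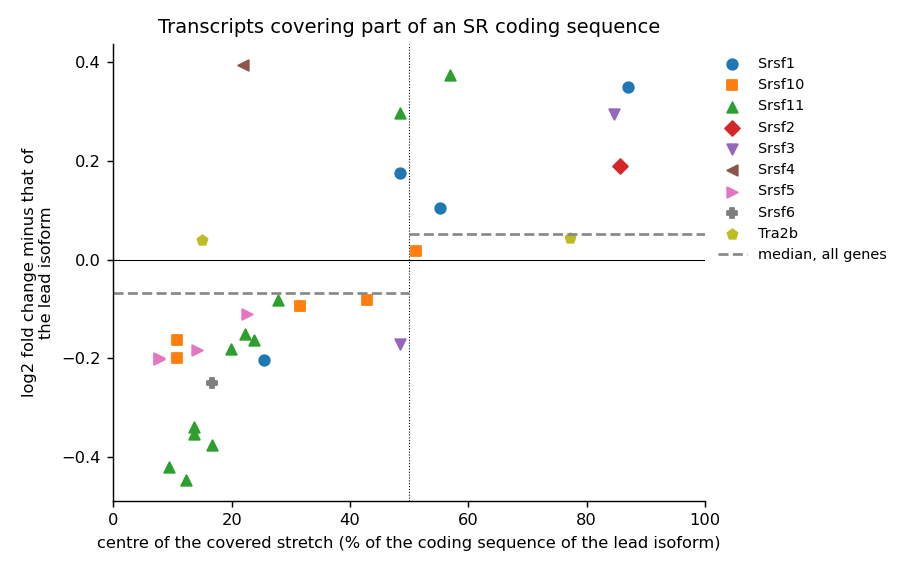
Log2 fold change (AHARIBO over standard) of transcripts covering part of an SR coding sequence, minus that of the gene's most abundant isoform, against the centre of the covered stretch in percent of the coding sequence, with 1 point per transcript and dashed lines for the medians over all genes. Most points left of the 50% line lie below 0, down to -0.45 for Srsf11-219, and all points right of it lie above 0.

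In Srsf11, 9 of 10 transcripts in the 5′ part lay below Srsf11-204. The retained-intron transcripts Srsf11-216, Srsf11-219, Srsf11-203, Srsf11-208 and Srsf11-215 are centred between 9.33% and 16.6% of the coding sequence and fell by between 0.48 and 0.59 on the log2 scale (edgeR adjusted p between 0.00388 and 0.00773). Srsf11-219 read 15.5, 15.01 and 12.9 CPM in standard and 9.97 and 9.39 CPM in AHARIBO libraries, without overlap. Of the later transcripts of Srsf11, only Srsf11-217 met the limits. Srsf11-213 and Srsf11-207, centred at 63.7% and 61.8%, cover 72.5% and 63.3% of the coding sequence and had log2 fold changes of 0.16 and 0.10 (adjusted p = 0.464 and 0.676). Srsf11-205, Srsf11-214 and Srsf11-211, each under 5 CPM on average, had 0.05, 0.94 and -0.10 (adjusted p = 0.946, 0.166 and 0.862). The 5 transcripts that fell share exons and reads, so they are close to a single observation.
In Srsf1, the retained-intron transcript Srsf1-206 covers the first 50.9% of the coding sequence and read 56.0, 52.2 and 59.3 CPM against 36.2 and 43.4 CPM. It fell by 0.49 on the log2 scale (SE 0.09, adjusted p = 0.000378), the lowest adjusted p among the transcripts of the 10 genes. Srsf1-203, centred at 87.0%, had a log2 fold change of 0.07 (adjusted p = 0.831).
In Srsf5, 3 transcripts over its first part, Srsf5-208, Srsf5-210 and Srsf5-211, fell by 0.33, 0.35 and 0.35 (adjusted p between 0.0149 and 0.0281), while no protein_coding-type isoform of that gene passed the threshold. No Srsf5 transcript met the limits in the 3′ part, so there was none to set against them.
The exceptions in the 5′ part were Srsf4-204, a transcript of the NMD type with a log2 fold change of 0.40 (adjusted p = 0.208), Srsf11-218, Srsf1-207 and Tra2b-202.

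Over all 48 transcripts of other types, 10 fell and 0 rose: 6 of 24 retained-intron transcripts, 2 of 13 of the NMD type and 2 of 11 processed transcripts. Over all genes, 2.51% of the retained-intron transcripts tested fell, 1.51% of those of the NMD type and 2.15% of the processed transcripts. The NMD-type isoform Srsf2-202 had the same value in each library as Srsf2-206, up to 164 CPM, and no window of 30 nt of Srsf2-206 is its own. Footprints of the NMD type and of the coding type cannot be told apart there. Of the 10 transcripts, all but Srsf2-202 lie over the 5′ part of the coding sequence by the limits above, where most SR transcripts within these limits lie. With Srsf6-202 counted, 10 of the 24 in the 5′ part fell and 0 of the 7 in the 3′ part. Over all genes these numbers were 390 of 7157 and 25 of 3084. As transcripts of a gene share reads, the SR counts are not separate observations.

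Summed over isoforms, which counts shared reads repeatedly, 0 of the 10 genes passed the threshold by edgeR, where 28 of 14504 genes (0.193%) did. At an unadjusted p under 0.05 there were 3, against 14.9% of all genes. They were Srsf2 (log2 fold change -0.32, edgeR adjusted p = 0.0782), Srsf1 (-0.30, adjusted p = 0.126) and Srsf6 (-0.24, adjusted p = 0.201). DESeq2 on the same sums called Srsf1 and Srsf2 (adjusted p = 0.0164 and 0.0013) among 1.7% of genes. With the most abundant transcript standing for each gene, edgeR called the same pair among 4.65% of genes.

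The partners of the SR proteins were examined as 3 lists at the gene level. Of the other SR and SR-related proteins, 12 of 13 were tested and 0 passed the adjusted threshold, with a median log2 fold change of -0.02 against 0.00 over all genes. Of the kinases and import factors that phosphorylate SR proteins or carry them into the nucleus, 9 of 10 were tested and 0 passed, with a median of 0.20. All 8 NMD factors were tested and 0 passed, with a median of 0.15. DESeq2 called 0 genes, but gave an adjusted p for only 10, 4 and 4 of the genes tested in the 3 lists, Clk4 not among them. At an unadjusted p under 0.05 there were 1 higher and 1 lower in the first list, 4 higher in the second and 2 higher in the third, against 14.9% of all genes in either direction. Those with the smallest p in the first 2 lists, named after their values were seen, were Srrm1, an SR-related coactivator (230, 224 and 224 CPM against 266 and 270 CPM, log2 fold change 0.25, edgeR adjusted p = 0.152), and the kinase gene Clk4 (11.2, 13.5 and 9.59 CPM against 18.9 and 16.1 CPM, log2 fold change 0.60, adjusted p = 0.167). Both were higher in each AHARIBO library than in any standard library, without passing the threshold.

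Duplicate reads were common on most of these mRNAs. Removal of duplicates had taken 11.8% to 55.4% of the counts of the most abundant SR isoforms, depending on gene and library, where the median over all tested transcripts of protein_coding type was 9.84%. The 10th and 90th percentiles were 4.35% and 28.7%, and transcripts were not matched for level. For Srsf3-202 the share ranged from 41.5% to 55.4%, and for Srsf4-202 from 11.8% to 16.2%. Srsf4-202, Srsf10-204 and Srsf11-204 lay below the 90th percentile in every library, and the most abundant isoforms of the other genes lay above it. The part of duplicate removal in the differences between methods was not tested beyond the values with duplicates kept.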

How the data were processed

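Reads were trimmed (Trimmomatic 0.36), cleared of rRNA and tRNA and aligned with STAR to Gencode M17 transcripts (GRCm38) by the authors, who deposited raw counts per transcript, with and without duplicate reads. The deposited counts without duplicates were used, and 0 per-sample columns were left unused. Names, types and exons came from Gencode M21, matched for 99.76% of transcripts by unversioned identifier. For 2 members, Srsf3-202 and Srsf7-201, M21 holds another version. CPM were computed with TMM factors, and transcripts reaching 1 CPM in any library were tested with edgeR 4.0.16 (quasi-likelihood, R 4.3.3) over all transcripts with Benjamini-Hochberg adjustment. DESeq2 1.42.0 and limma 3.58.1 were alternatives. Standard errors were derived from the fold change and F statistic. Scripts were tested on simulated data. Members, lists and tests were chosen with earlier results of these data known. The transcripts named were the 2 most abundant isoforms of each gene and every member past the threshold. Others were named after their values were seen.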

Additional observations from a re-analysis of the deposited data

How the results depend on the processing

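The count of 6 SR transcripts that fell was 6 with RLE factors, with library totals only, without a filter and with 1 CPM required in at least 2 libraries. It was 2 with DESeq2, 2 with duplicate reads kept and 2 with a replicate block (Srsf6-202, adjusted p = 0.0014, and Srsf11-209, 0.0346). The block leaves standard replicate 3 without a partner, so it is close to leaving that library out. For Srsf1-205 both gave a log2 fold change of -0.249. Leaving out single libraries gave 0 to 6, with 0 without standard replicate 1 and 0 without AHARIBO replicate 1. Over all transcripts, 3021 calls (1520 higher, 1501 lower) became 272 with DESeq2, 1792 with the block, 1173 without standard replicate 1, 1815 without standard replicate 3 and 510 without AHARIBO replicate 1, and with library totals only the split was 1978 higher and 1048 lower. Among the 162 alternatives run on the log2 fold changes of named transcripts, 125 kept direction and side of the threshold, 27 lost significance and 10 turned sign, all of them in transcripts that were not called. With duplicates kept the turned values were 0.0022 for Srsf5-201, 0.048 for Srsf7-201, 0.011 for Tra2b-201 and -0.035 for Srsf4-202. Srsf4-202 was also -0.010 with DESeq2 and -0.0054 with RLE factors, and ranged from -0.12 (without AHARIBO replicate 1) to 0.11 (without AHARIBO replicate 2) as single libraries were left out, with -0.06 without standard replicate 2. Srsf3-202 ranged from -0.10 (without AHARIBO replicate 2) to 0.14 (without AHARIBO replicate 1), with -0.0028 without standard replicate 1. The count of 0 SR genes was 2 with DESeq2, 2 without a filter and 2 with the most abundant transcript, and all genes called numbered 28, 246, 545 and 716 in that order, and 92 with every transcript type summed. With 1 transcript per gene, 1 kinase (Prpf4b, adjusted p = 0.0134) and 1 NMD factor (Smg1, 0.0101) were called. Isoform usage stayed at 0 SR calls under every alternative, while all calls went from 0 to 51 with every type and 12 with duplicates kept. The median share on the most abundant isoform, 36.0%, was 26.1% with every type in the denominator, 35.4% with duplicates kept and 25.7% per transcript length. The order of 10 genes kept 3 ranks per coding length. The numbers of 20 and 7 transcripts below and above the most abundant isoform, by position, ranged over 19 to 21 and 6 to 7, under alternatives chosen after the data were seen. Same-numbered libraries did not deviate together (r = 0.04 and -0.09), and whether a number marks a shared lysate is not stated. The causes were not tested. Of the 26 isoforms, Srsf11-217 was the shallowest, with 37 to 72 counts a library.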
